A study of Mus musculus with 6 samples.

Results

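Protein phosphatase 2A (PP2A) is a serine/threonine phosphatase built from a catalytic, a scaffold and a regulatory subunit, and its transcripts were compared here in mouse fat stromal cells with and without a GFP reporter for Zfp423. The set held 10 subunit genes, and the members were all probes whose platform gene symbol is one of them. Probes were named for 9 of the 10 genes, among 19057 genes with a named probe on the array, and these 9 genes had 19 probes. The members were chosen by the measured signals of this same contrast, around the low Ppp2r2b signal of GFP-positive cells, so differences of its members between the groups are given as descriptions, without p-values. No probe was named for Ppp2r5a, which was not analysed here.

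Both groups came from male Zfp423-GFP reporter mice, aged 5 weeks, and from their epididymal fat. The stromal vascular fraction was stained, PDGFRβ+ CD31- CD45- cells were kept, and these were sorted by GFP, with 3 arrays per group, 1 Illumina bead array per sample. The samples are described as biological replicates. The promoter that drives the reporter, the strain, and whether a sample held 1 animal or several were not given in the sources used here; p-values measure the spread between these samples. RNA went through 2 rounds of amplification before labelling, per the labels' protocols.

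In the PP2A enzyme, the scaffold (A) subunit holds the catalytic (C) subunit, and 1 of many regulatory (B) subunits completes the complex and directs it to substrates and places in the cell. The regulatory subunits fall into unrelated families: B55 (Ppp2r2 genes), B56 (Ppp2r5 genes), the calcium-binding B'' group (Ppp2r3 genes) and the striatins. Most subunits are found in nearly all tissues, whereas Ppp2r2b, the B55β subunit, is known chiefly from brain. Human PPP2R2B is the gene of a spinocerebellar ataxia caused by a repeat expansion.

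Ppp2r2b stood apart from every other measured PP2A subunit. Its signal was clearly present in GFP-negative cells and close to background in GFP-positive cells, 13.6-fold lower with background correction and 6.60-fold lower without it. The scaffold gene Ppp2r1a was also lower in GFP-positive cells, by a much smaller step, 1.48-fold. The other tested members lay within 0.65 of 0 on the log2 scale. No tested probe of another regulatory subunit was called higher where Ppp2r2b was low, beside 7.85% of all tested probes called higher.

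A probe counted as detected on an array when its detection p, which sets it against the array's negative control beads, was under 0.01, and a probe was tested when detected on at least 3 of the 6 arrays. Median deposited signals were 145.8 to 162.0 per array, and 13068 to 14026 probes per array were detected. Over tested probes, arrays of the same group correlated at 0.982 to 0.990 and arrays of different groups at 0.948 to 0.960. Of 19 member probes, 9 passed this filter, from 7 genes, and 9 were not detected on any array. A value called log2 below is a background-corrected, quantile-normalized log2 signal, and values of a group are listed for replicates 1, 2 and 3. A difference is the mean of the GFP-positive minus the mean of the GFP-negative arrays, with ± marking its SE (standard error) in a limma fit over all probes. In that fit 15.6% of all 13727 tested probes passed an adjusted p of 0.05 (Benjamini-Hochberg), 7.77% as lower and 7.85% as higher in GFP-positive cells. Of the 9 tested member probes, 2 were called lower, those of Ppp2r2b and Ppp2r1a, and 0 higher; since the contrast chose the set, nothing is read from these counts.

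**Figure D1:**
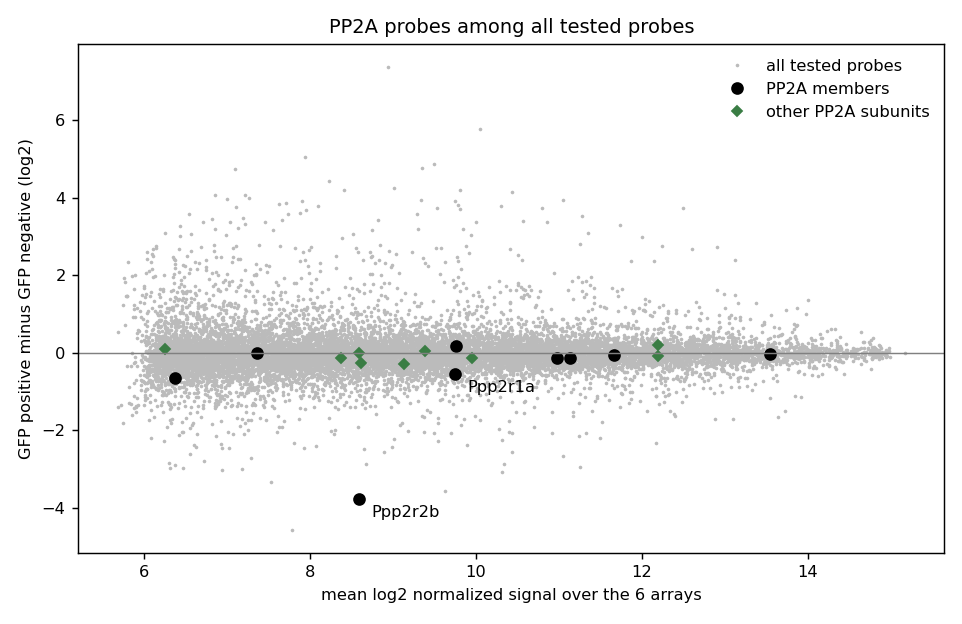
Each point is a tested probe, with its mean log2 normalized signal over the 6 arrays on the x axis and the difference GFP positive minus GFP negative (log2) on the y axis. Black circles are the 9 tested PP2A member probes and green diamonds the tested probes of other PP2A subunits; Ppp2r2b lies at -3.77, Ppp2r1a at -0.56, and the others lie near 0 apart from a dim Ppp2r5c probe at -0.64.

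The B55 family of regulatory subunits contains Ppp2r2b. Probe ILMN_1229427 of Ppp2r2b, annotated to transcript NM_028392, gave deposited signals of 246.9, 225.0 and 262.6 on the GFP-positive arrays and of 1287.9, 1491.2 and 1770.3 on the GFP-negative arrays. All 3 GFP-positive arrays were low and all 3 GFP-negative arrays high, and the highest GFP-positive signal lay well under the lowest GFP-negative one. The probe was detected on every array, but on GFP-positive replicate 2 only just inside the detection limit.

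On the log2 scale Ppp2r2b read 6.83, 6.40 and 6.87 in GFP-positive and 10.19, 10.48 and 10.73 in GFP-negative cells. The means were 6.70 ± 0.26 and 10.47 ± 0.27 (SD, n = 3), a difference of -3.77 ± 0.19 (SE). In the arrays whose titles open with RG the difference was -3.58, and in those that open with KM it was -3.74. What these letters stand for is not given. RG opens the titles of GFP-positive replicates 1 and 2 and GFP-negative replicate 1, and KM those of the other arrays. Each RG or KM difference, here and below, therefore has a single array on 1 side. Because the GFP-positive signal lay near background, the size of the fold rested on the background correction. Without one the difference was -2.72 (6.60-fold), with a normexp offset of 50 in place of 16 it was -3.39 (10.5-fold), and in the authors' normalized table it was -2.72. In bulk samples such as these, fewer cells with the transcript and less transcript per cell cannot be told apart.

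A second Ppp2r2b probe, ILMN_2514385, annotated to the cDNA AK039592, was not detected on any array. Its log2 values were 5.70, 5.53 and 5.58 in GFP-positive and 5.36, 5.74 and 5.96 in GFP-negative cells, so the groups overlapped. The large difference of Ppp2r2b therefore rests on 1 probe. Where the probes lie on the transcripts was not checked.

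**Figure D2:**
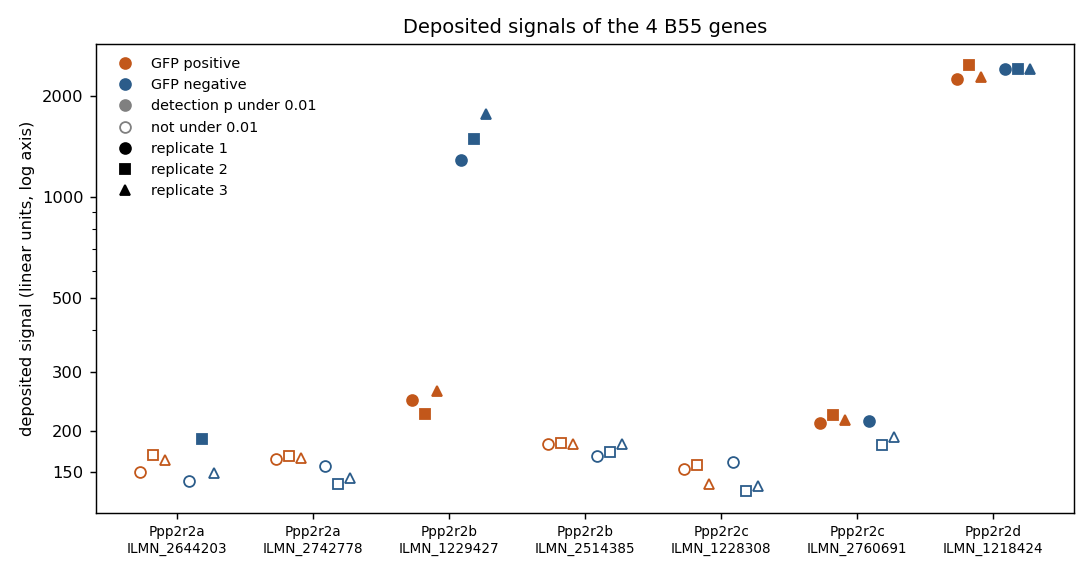
Deposited signals (linear units, log axis) of every probe of the 4 B55 genes on each array, GFP positive in orange and GFP negative in blue, with filled symbols where the detection p was under 0.01. Probe ILMN_1229427 of Ppp2r2b separates the groups, Ppp2r2d is bright on all 6 arrays, and the remaining probes lie near background; signals of different probes are not comparable in level.

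Ppp2r2d encodes B55δ, known for its part in the timing of mitotic entry and exit. Its probe read 11.05, 11.13 and 11.01 in GFP-positive and 11.18, 11.20 and 11.19 in GFP-negative cells. The GFP-positive values all lay under the GFP-negative ones, but the difference was small, -0.13 ± 0.10 (95% interval -0.35 to 0.10). Ppp2r2a, which encodes the widely expressed B55α, had 2 probes, and neither was tested: ILMN_2742778 was not detected on any array, and ILMN_2644203 on GFP-negative replicate 2 alone. No difference of Ppp2r2a could therefore be measured here. Ppp2r2c, the B55γ gene and no member of the set, was tested through ILMN_2760691, which was detected on 3 GFP-positive arrays and 1 GFP-negative array. Its signal lay near background, and it entered the test mainly through the GFP-positive group, where its mean was slightly higher. Its difference of 0.09 ± 0.14, like its values below, is therefore a description with no test.

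The scaffold subunits were measured by 1 tested probe each. The Ppp2r1a scaffold, the predominant form in most tissues, read 9.30, 9.43 and 9.67 in GFP-positive and 9.90, 10.10 and 10.08 in GFP-negative cells. Every GFP-positive array was lower than every GFP-negative array, and the difference was -0.56 ± 0.13 (95% interval -0.87 to -0.25), a 1.48-fold lower signal. The RG arrays alone gave -0.54 and the KM arrays -0.42. The call of Ppp2r1a ended under 6 of 17 alternatives. Among these were the fits without GFP-positive replicate 1 (-0.48), GFP-positive replicate 2 (-0.54), GFP-negative replicate 2 (-0.52) and GFP-negative replicate 3 (-0.54).

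Ppp2r1b, the second scaffold gene, went the other way by a small amount. Its bright probe ILMN_2615232 read 9.72, 9.90 and 9.93 in GFP-positive and 9.61, 9.64 and 9.76 in GFP-negative cells. The groups overlapped, with GFP-positive replicate 1 below GFP-negative replicate 3, and the difference was 0.18 ± 0.11 (95% interval -0.08 to 0.44). This was the largest positive difference among the tested member probes. The other 3 Ppp2r1b probes were not detected on any array.

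The catalytic subunits did not separate the groups. Ppp2ca, which encodes the main catalytic subunit Cα, read 13.63, 13.57 and 13.40 in GFP-positive and 13.57, 13.51 and 13.61 in GFP-negative cells. These ranges overlapped, and the difference was -0.03 ± 0.11 (95% interval -0.29 to 0.22). Ppp2cb, which encodes the near-identical Cβ, read 10.85, 11.16 and 10.70 in GFP-positive and 11.07, 11.09 and 10.99 in GFP-negative cells. GFP-positive replicate 2 was the highest and GFP-positive replicate 3 the lowest of the 6 arrays, and the difference was -0.15 ± 0.14 (95% interval -0.48 to 0.18). Cross-binding between the Ppp2ca and Ppp2cb probes was not checked.

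**Figure D3:**
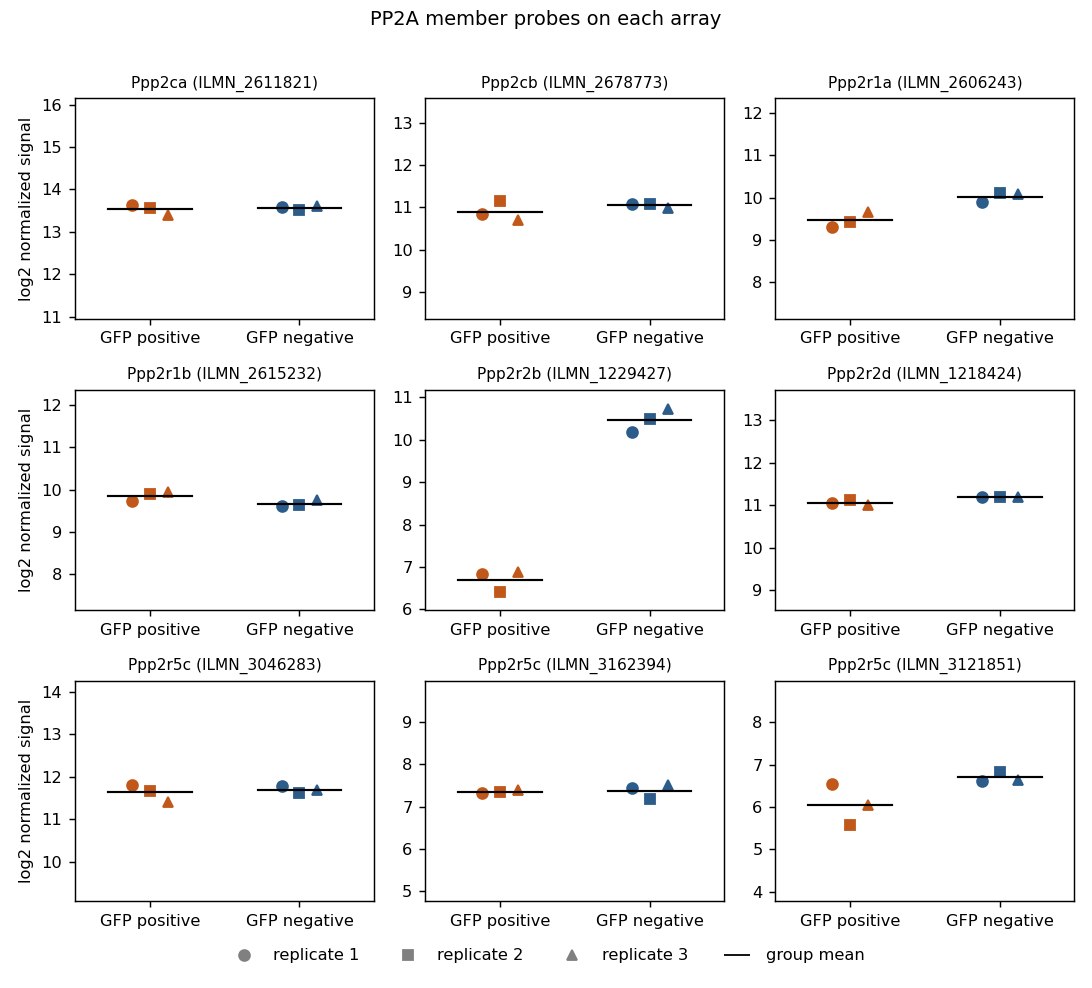
Log2 normalized signal of the 9 tested PP2A member probes on each array, GFP positive in orange and GFP negative in blue, with the symbol giving the replicate and the bar the group mean; each panel spans the same log2 range around its own centre. Ppp2r2b falls into separate groups near 6.70 and 10.47, Ppp2r1a shows a small gap, and the 2 catalytic genes and Ppp2r1b overlap.

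Ppp2r5c encodes B56γ, a B56 subunit known for directing PP2A to p53 and to centromeres. It had 6 probes, of which 3 were tested. The brightest, ILMN_3046283, read 11.81, 11.67 and 11.41 in GFP-positive and 11.77, 11.61 and 11.70 in GFP-negative cells. Its groups overlapped, and it differed by -0.06 ± 0.13. The next, ILMN_3162394, read 7.32, 7.35 and 7.39 in GFP-positive and 7.43, 7.17 and 7.52 in GFP-negative cells and differed by -0.02 ± 0.12. The dimmest tested probe, ILMN_3121851, read 6.53, 5.58 and 6.04 in GFP-positive and 6.60, 6.84 and 6.65 in GFP-negative cells.

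That dim probe had non-overlapping groups and a difference of -0.64 ± 0.23 (95% interval -1.20 to -0.09), which the brighter probes of the same gene did not show. It was detected on 1 GFP-positive and all 3 GFP-negative arrays, so it entered the test mainly through the group in which it is higher. Without background correction its difference was -0.24. The only Ppp2r3a probe was not detected on any array; this gene encodes a calcium-binding B'' subunit. Over all tested member probes, groups did not overlap for 4 of 9, all lower in GFP-positive cells, against 36.3% of all tested probes in either direction and 20.5% as lower. The median difference of the 9 probes was -0.13, and that of all tested probes -0.05.

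PP2A subunit genes outside the set showed no call in either direction. Of 9 such genes listed (the remaining B55, B56 and B'' genes and the striatins), 8 had a named probe and 5 were tested; 0 passed in limma, and 1 was lower and 0 higher at an unadjusted p under 0.05. Of all 8819 tested genes 15.8% passed, 7.17% as lower and 8.65% as higher in GFP-positive cells, and 36.5% had groups that did not overlap, 18.8% as lower and 17.7% as higher. The share of all tested genes at an unadjusted p under 0.05 was not counted. Genes are represented here by their tested probe with the highest mean. Ppp2r5d, the B56δ gene, read 12.33, 12.26 and 12.27 in GFP-positive and 12.03, 12.13 and 12.14 in GFP-negative cells. Its groups did not overlap, as for the 17.7% of genes above, and its difference of 0.19 ± 0.10 (limma adjusted p = 0.240) was the highest of the 5. Its other 3 tested probes pointed the other way, by -0.27 to -0.14, so the direction of Ppp2r5d was not settled.

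Ppp2r5e, the B56ε gene, differed by -0.09 ± 0.11 (limma adjusted p = 0.622). Strn, the gene of striatin, a scaffold and PP2A regulatory subunit, differed by -0.02 ± 0.12 (limma adjusted p = 0.934). Its relative Strn4 read 8.85, 9.01 and 9.09 in GFP-positive and 9.35, 9.31 and 9.17 in GFP-negative cells, and its difference of -0.29 ± 0.11 did not pass (limma adjusted p = 0.137). The median of the 5 genes was -0.02, the same as the median of -0.02 over all tested genes. Probes of Ppp2r5b, Ppp2r3c and Ppp2r3d were not tested, and no probe was named for Strn3.

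Taking members and other genes as 1 set of regulatory subunits, 14 were listed besides Ppp2r2b, and 7 of them had 13 tested probes. Of these 13 probes 0 were called higher and 0 lower in limma, and 0 were higher at an unadjusted p under 0.05. Over all tested probes 7.85% were called higher and 7.77% lower, so the called counts of 0 among 13 probes lie near these shares. At the unadjusted threshold the Strn4 probe and the dim Ppp2r5c probe were lower, and no share of all probes was counted there. Some of the 13 are member probes, chosen by this contrast, and nothing is read from the counts. The highest difference was the 0.19 of Ppp2r5d, and the highest upper end of a 95% interval was 0.41, a 1.33-fold rise. Which gene was highest depended on 1 array and on the scaling. Without GFP-negative replicate 1 Ppp2r2c reached 0.21 ± 0.13 and Ppp2r5d 0.15 ± 0.11. The highest upper end was then 0.51 (1.43-fold), and 0 probes were called higher. Other settings gave wider bounds, each with 0 probes called higher. The highest upper end was 0.58 (Ppp2r2c) with an intensity trend and robust prior. With detection on at least 1 array it was 0.55 (Ppp2r2a). Without a detection filter it was 0.87 (1.83-fold, Ppp2r5d), over 29 probes that include undetected ones. With median scaling Ppp2r2c was highest, at 0.134, and Ppp2r5d was at 0.099. Without GFP-negative replicate 2 the difference of Ppp2r2c was -0.02. Under the main detection filter the other 7 genes, Ppp2r2a among them, gave no measurement. Signals of different probes cannot be set against each other, so the make-up of the PP2A complexes was not estimated.

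**Figure D4:**
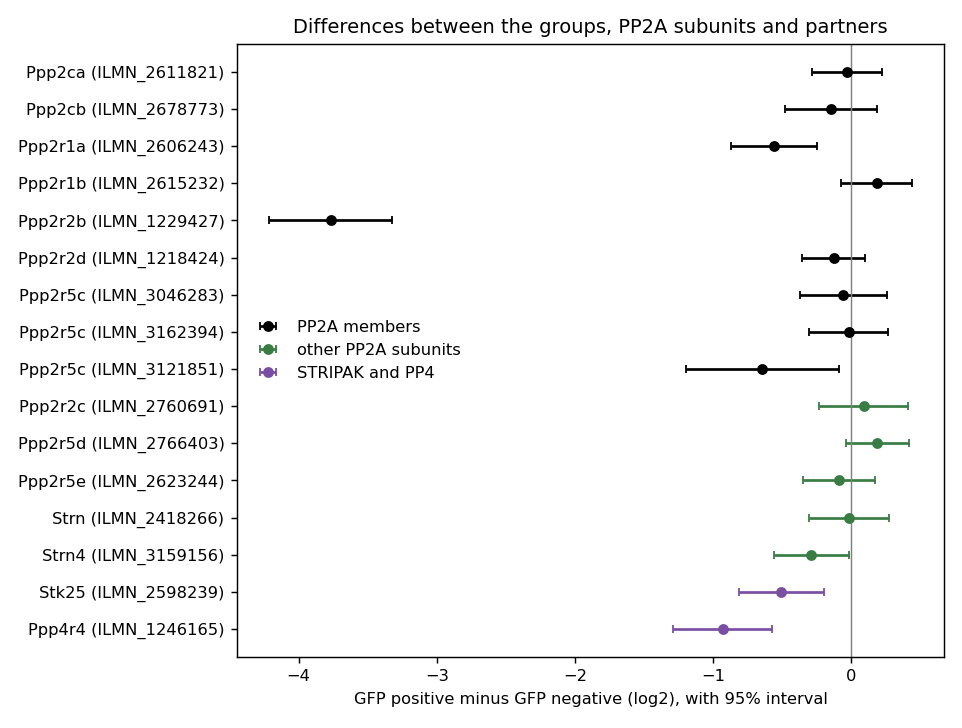
Differences GFP positive minus GFP negative (log2) with the 95% interval of the limma fit, for the 9 tested PP2A member probes (black), the representing probes of 5 other PP2A subunits (green) and the called genes of the STRIPAK and PP4 lists (purple). Ppp2r2b lies at -3.77, and no interval reaches above 0.44.

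Regulators of PP2A itself gave no call. Of 15 genes for assembly, methylation and inhibition, 10 were tested and 0 passed in limma, with 2 lower at an unadjusted p under 0.05 and a median difference of -0.18. Lcmt1, the methyltransferase that marks the catalytic subunit's tail, had the smallest adjusted p of this list on its brightest probe (-0.29 ± 0.10, limma adjusted p = 0.0995). Ppme1, which removes that methyl group, differed by 0.02 ± 0.12 (limma adjusted p = 0.942). Cip2a, Mastl and Sgo1, which act on PP2A in dividing cells, were not detected on any array. These 5 genes are named after their values were seen.

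STRIPAK is the complex in which striatins join PP2A to kinases. Of 12 listed partners 6 were tested, and 1 was called, Stk25, the gene of a STRIPAK kinase. Stk25 read 7.08, 7.03 and 6.70 in GFP-positive and 7.38, 7.47 and 7.48 in GFP-negative cells, lower by -0.51 ± 0.13 (limma adjusted p = 0.0432), with -0.32 from the RG arrays alone and -0.78 from the KM arrays. Its call ended in each of the 6 fits that leave out 1 array, as well as in 7 other settings. The list had a median of -0.16.

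PP4 and PP6 are the phosphatases nearest to PP2A in sequence. Of 13 listed genes 11 were tested, 1 was called lower and 0 higher, with a median of -0.07. The called gene was Ppp4r4, a regulatory subunit of PP4. It read 6.36, 6.18 and 6.47 in GFP-positive and 7.04, 7.26 and 7.51 in GFP-negative cells, with no overlap, and was lower by -0.93 ± 0.15 (limma adjusted p = 0.00838), by -0.77 among RG arrays and -0.92 among KM arrays. Its probe was detected on 2 GFP-positive and 3 GFP-negative arrays, and its other probe on none. The more distant phosphatases (PP1, calcineurin, PP5 and PP2C) had 15 tested genes of 17, of which 0 passed in limma and 4 were lower at an unadjusted p under 0.05, with a median of -0.06. The share of all tested genes called was 15.8%, beside which the called counts of these 5 lists stand. No such share was counted at an unadjusted p under 0.05, so nothing is read from the counts at that threshold.

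The genes whose pattern over the 6 arrays was most like that of Ppp2r2b were found by Euclidean distance between log2 values centred on each gene's mean, among 8818 other tested genes. The nearest was Mtcl1, at a distance of 0.82, which read 6.35, 5.68 and 5.56 in GFP-positive and 8.97, 9.28 and 9.33 in GFP-negative cells. Then came Kcnk13 (1.12), a potassium channel gene, Aif1l (1.16), Nptx2 (1.26), a secreted pentraxin, and Sema3e (1.29), a guidance ligand. Of these 5 Aif1l was detected on all 3 GFP-positive arrays and Mtcl1 on 1, and the others on none, so their values there lie at background. The 6 arrays fall into 2 groups, and the distance is a description with no test.

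The sort labels and possible other cells were checked with marker genes. Zfp423, looked up after the results were known, differed by 0.12 ± 0.17 on its brighter probe (limma adjusted p = 0.694). Its 95% interval of -0.29 to 0.53 holds 0 and modest differences alike, so no difference of its transcript was resolved. Pdgfrb, the sorting marker of both groups, was present on every array and higher in the GFP-positive group (0.58 ± 0.11, limma adjusted p = 0.0172), while Pdgfra differed by -0.08 ± 0.11 (limma adjusted p = 0.680). Of 6 stromal markers 2 were higher and 0 lower in GFP-positive cells. No Ptprc (CD45) probe was detected, and Pecam1 (CD31) was detected on all 6 arrays through 1 of its 3 probes and differed by -0.41 ± 0.23 (limma adjusted p = 0.291).

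Since Ppp2r2b is best known from neurons, the neuronal markers are given beside it. Of 7 such genes 3 were tested: Rbfox3 and Syt1 were higher in GFP-positive cells and Uchl1 was lower. Tubb3, Snap25, Stmn2 and Elavl4 were not detected on any array. The summed linear normalized signal of the tested neuronal genes was 1266 to 1367 in GFP-positive and 467 to 570 in GFP-negative cells. In GFP-positive cells this sum came mostly from Rbfox3, at a mean log2 of 10.09 beside 7.52 for Syt1 and 5.41 for Uchl1. The Syt1 probe was detected on 3 GFP-positive and 0 GFP-negative arrays, and the Uchl1 probe on 0 and 3. Each of these 2 thus entered the test through the group where it is high. Of the 3 tested genes Uchl1 alone moved in the direction of Ppp2r2b, and the part of these markers in the Ppp2r2b result was not tested. Of 6 Schwann cell markers 1 was tested, Mbp, and it was higher in GFP-positive cells; S100b and Sox10 were not detected, and the summed signal was 245 to 335 in GFP-positive and 62.6 to 116 in GFP-negative cells.

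Of 7 endothelial markers 6 were tested and 1 was called, Tek, the angiopoietin receptor, which was lower in GFP-positive cells by -1.64 ± 0.12 (limma adjusted p = 0.000367). The summed endothelial signal was 4050 to 4909 in GFP-positive and 10368 to 11373 in GFP-negative cells, but without Tek it was 969 to 1504 and 1310 to 1494, ranges that overlap. Of the other 5 genes 0 were called, with 3 differences above 0 and 2 below. Emcn, an endothelial sialomucin, differed by 0.74 ± 0.22 (limma adjusted p = 0.0657), with every GFP-positive value above every GFP-negative one, and Cdh5, the VE-cadherin gene, by 0.61 ± 0.31 (limma adjusted p = 0.239); both are named after their values were seen. All 5 tested mural markers of 8 were higher in GFP-positive cells, Abcc9, Notch3 and Myh11 with the smallest p-values. The summed mural signal was 6118 to 9674 against 3266 to 4280. The tested Abcc9 and Kcnj8 probes were detected on 3 GFP-positive and 0 GFP-negative arrays, so both genes entered the test through the group where they are high. Kcnj8 ran from 6.85 to 10.09 within the GFP-positive group. Dimmer tested Acta2 probes differed by 0.20 and -0.01 and were not called. Of 8 leukocyte markers 2 were tested, Lyz2 and Csf1r, both higher in GFP-positive cells, with a summed signal of 522 to 839 against 97.2 to 106. Their tested probes were detected on 3 GFP-positive and 0 GFP-negative arrays, so both entered the test through the group where they are high. Ptprc, Adgre1, Cd52 and Cd3e were not detected. The part of the mural and leukocyte markers in the results was not tested. No tested mesothelial or adipocyte marker was called, with summed signals of 332 to 1155 against 417 to 487 and of 92.1 to 362 against 59.2 to 133.

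**Figure D5:**
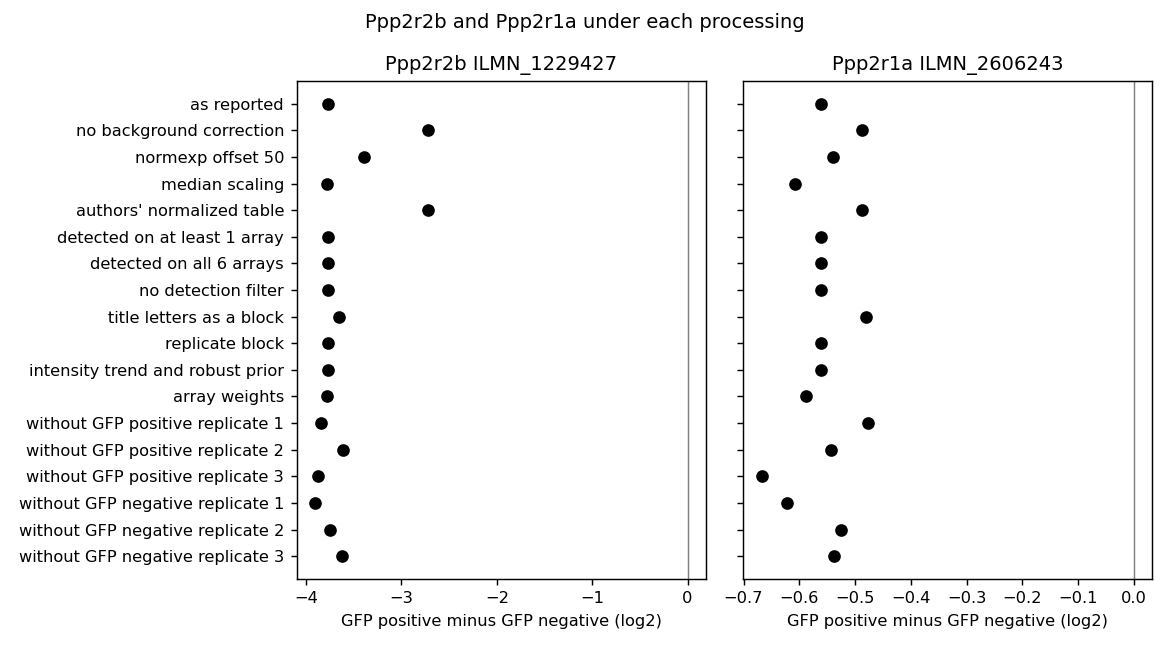
Difference GFP positive minus GFP negative (log2) of the Ppp2r2b and Ppp2r1a probes as reported and under 17 other settings, with a separate x axis for each probe. Ppp2r2b ranged from -3.90 to -2.72, with its smallest sizes where no background was subtracted, and Ppp2r1a from -0.67 to -0.48.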

How the data were processed

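Gene expression was measured in 6 samples, 3 GFP positive and 3 GFP negative, grouped by their titles. The main values were deposited probe signals, a linear intensity on a scale not normalized across arrays. A detection p-value accompanied every signal, per the file headers. The authors' second table held intensity values whose columns share 1 distribution; it was read as quantile-normalized. The submitters' processing notes name GenomeStudio and no version; its settings were not given in the sources used here.

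Signals were processed with neqc in limma 3.58.1 (R 4.3.3): normexp background correction with control statistics inferred through the detection column and an offset of 16, then quantile normalization on the log2 scale. The test took probes detected (p under 0.01) on 3 or more of the 6 arrays, in whichever group (13727 of 45281, 30.3%) and used lmFit and eBayes, 2-sided, adjusted by Benjamini-Hochberg over all tested probes. The platform annotation gave 1 symbol for 34885 probes, several for 18 and none for 10378; gene numbers of 34807 were found in a RefSeq table of GRCm38.p6, used for names alone. A gene is its tested probe with the highest mean. Alternatives changed the background correction, scaling, detection filter, blocks, variance model and arrays included, 1 at a time. The procedure was also run on simulated data, with changes put into brighter probes alone. The outcome of that run is not used here, and changes in dim probes were not covered.

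The members and gene lists were chosen with earlier results of these data known. The text names all members, all other PP2A subunits listed, called genes of the other lists (up to 6 by p) and sort markers. It also names up to 3 called genes of a marker list and the 5 genes nearest to Ppp2r2b. Other names were chosen after their values were seen, and not all are marked so where they stand. Among the unmarked are Kcnj8, Acta2, undetected markers and genes called only under an alternative. The number of arrays limits the precision. No sequence is printed.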

Additional observations from a re-analysis of the deposited data

How the results depend on the processing

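As a description, the difference of Ppp2r2b ran from -3.90 to -2.72 (log2) over the 17 alternatives, and no member probe was called higher under any of them. With single arrays left out Ppp2r2b ran from -3.90 to -3.62 and Ppp2r1a from -0.67 to -0.48. Ppp2r1a lost its call without a detection filter and with the replicate block, in both at -0.56, and in 4 of the 6 fits that leave out 1 array. Member probes called lower numbered 1 without a detection filter and with the replicate block, and 1 to 2 with single arrays left out; without GFP-positive replicate 1 the 2 were Ppp2r2b and the dim Ppp2r5c probe. Deviations of same-numbered arrays from their group means correlated at -0.07, -0.20 and 0.07, and those of different-numbered arrays at -0.20 to 0.25. With 3 arrays per group these values cannot settle whether the replicate numbers of the titles pair the samples. Over all probes, 690 were lower without a filter and 637 with the replicate block in place of 1066, and 359 to 879 with single arrays left out; 639 to 969 in place of 1078 were then higher. Lower calls moved by over 1.5 times without GFP-positive replicate 2 (636) and GFP-negative replicates 2 (359) and 3 (418), and higher calls without any 1 array except GFP-negative replicate 1 (639 to 709).

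Of the lists, STRIPAK partners had 0 calls in place of 1 without background correction, in the authors' normalized table, with the title letters as a block, with the replicate block, with an intensity trend and robust prior, and in each fit without 1 array (0 to 0); the 1 call was Strip2, not Stk25, with detection on at least 1 array and without a filter. PP4 and PP6 had 0 with detection on all 6 arrays, where Ppp4r4 is not tested. The more distant phosphatases had 1 call with detection on at least 1 array (Ppm1g), on all 6 arrays (Ppp1r15b), with the title letters as a block (Ppp1r15b) and with an intensity trend and robust prior (Ppm1d). The other PP2A subunits and the PP2A regulators had 0 throughout. The causes were not tested. Median scaling moved the median of all tested probes from -0.05 to -0.09. Signal over background limits what is known of Ppp2r2a, Ppp2r3a and the GFP-positive level of Ppp2r2b.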

Other observations

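Ppp6r3, which encodes a regulatory subunit of PP6, gave different answers by probe and was singled out after its values were seen. Its brightest probe, ILMN_2698353, differed by 0.05 ± 0.11 (limma adjusted p = 0.816), and ILMN_1235583 by -0.24 ± 0.18 (limma adjusted p = 0.412). The dim ILMN_1221009, annotated to the cDNA AK032179, averaged 6.94 ± 0.09 in the GFP-positive group and 6.08 ± 0.25 in the other (SD, n = 3), with no overlap, and differed by 0.87 ± 0.15. It was detected on 3 GFP-positive arrays and 1 GFP-negative array, and so entered the test through the group where it is high; its difference is a description with no test.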
